A study of Mus musculus with 26 samples.

Results

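Cst7, Lyz2, Tyrobp, Trem2, Apoe, Cd68, Mpeg1, Ctss, Lgals3 and Itgax are genes that microglia raise when they take on the phagocytic state called disease-associated microglia. They were picked by name, with earlier results of these data known, so their changes beside those of all genes are a description. All 10 were found among the 37991 genes of the count table, each under 1 gene identifier. RNA-seq had been run on retinas of rd10 mice, which lose their rods through a mutation in the rod gene Pde6b (B6.CXB1-Pde6brd10/J in the labels), at PN24 after intraperitoneal injections begun at PN9. The labels give saline to all controls, and all mice carried rd10, so no healthy retina was compared. The whole-retina experiments had 4 control and 2 treated libraries for DZNep, an EZH2 inhibitor given at 1.5 mg/kg daily up to PN12 and at 1 mg/kg on alternate days from PN13, although the labels call every injection daily. They had 3 and 3 libraries for UNC1999, a more specific EZH2 inhibitor, at 15 mg/kg, 2 and 2 for UNC0642, a G9A/GLP inhibitor, at 7.5 mg/kg, and 3 and 3 for Romidepsin, an HDAC inhibitor, at 0.2 mg/kg. UNC1999 alone was dissolved in a mixture of DMSO, PEG300, Tween-80 and saline. The sources name both saline and diluent for mice set beside UNC1999, and if the sequenced controls had plain saline, inhibitor and solvent cannot be told apart. In the fifth experiment, 2 control and 2 libraries treated with GSK2879552 (GSK), an LSD1 inhibitor at 4.2 mg/kg, came from rods sorted for EGFP driven by the Nrl promoter in rd10 mice. The study's methods give a SMART-Seq kit for the rods, while the labels give the stranded mRNA kit of the retinas for every library. The labels call the replicates biological without naming animals, and the p-values measure the spread between these libraries.

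Microglia are the resident phagocytes of the retina, and in rd10 they move into the photoreceptor layer and engulf dying and living rods. In the disease-associated state, the receptor TREM2 binds lipids and lipoproteins such as APOE and signals through the adaptor DAP12, which is encoded by Tyrobp. Lysosomal and secreted proteins then rise while genes of surveying, homeostatic microglia fall. In retina, Müller glia also make Apoe, and macrophages that enter from the blood share several of these genes. In bulk tissue, fewer cells of a type, less RNA per cell and a larger share of RNA from other cells cannot be told apart.

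Promoters were read for the members from RefSeq (GRCm38.p6), as the 250 bases before each start site, and 9 of the 10 genes had an entry, the exception being Tyrobp. These 4 are shown because Cst7 and Lyz2 had the largest changes that passed the test, Mpeg1 passed it in 2 experiments, and Lgals3 moved apart from the rest. Capitals mark the ETS motif AGGAAGT, the kind of sequence bound by the myeloid factor PU.1, on either strand. Cst7 lies at chr2:150570165-150570414 (plus strand), Lyz2 at chr10:117282273-117282522 (minus), Mpeg1 at chr19:12460520-12460769 (plus) and Lgals3 at chr14:47373610-47373859 (plus).
Cst7: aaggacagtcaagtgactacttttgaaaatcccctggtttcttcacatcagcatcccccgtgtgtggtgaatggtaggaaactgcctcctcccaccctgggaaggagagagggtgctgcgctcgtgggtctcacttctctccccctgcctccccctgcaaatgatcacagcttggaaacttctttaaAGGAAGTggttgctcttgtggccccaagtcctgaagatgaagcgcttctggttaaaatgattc
Lyz2: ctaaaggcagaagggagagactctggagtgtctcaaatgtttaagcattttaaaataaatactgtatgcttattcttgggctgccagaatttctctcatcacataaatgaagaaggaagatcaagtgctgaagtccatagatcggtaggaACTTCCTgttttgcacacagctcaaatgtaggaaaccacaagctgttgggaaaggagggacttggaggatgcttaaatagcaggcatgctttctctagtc
Mpeg1: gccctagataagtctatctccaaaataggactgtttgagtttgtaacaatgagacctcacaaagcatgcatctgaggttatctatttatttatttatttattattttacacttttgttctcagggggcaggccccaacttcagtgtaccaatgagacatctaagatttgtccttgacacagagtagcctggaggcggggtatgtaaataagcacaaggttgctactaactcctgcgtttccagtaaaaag
Lgals3: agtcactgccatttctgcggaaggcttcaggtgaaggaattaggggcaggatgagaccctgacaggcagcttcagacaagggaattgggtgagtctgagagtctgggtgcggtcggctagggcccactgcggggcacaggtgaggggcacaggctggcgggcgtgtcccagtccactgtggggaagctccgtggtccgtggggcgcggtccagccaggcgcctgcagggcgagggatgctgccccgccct
The ETS letters stood in 2 of the 9 promoters, Cst7 and Lyz2, and in 7.69% of 32851 RefSeq promoters of the same length. The AP-1 letters TGANTCA stood in 3 of the 9 (Cd68, Itgax and Trem2) and in 6.75% of all. A match of letters is a description and not a binding site. The Lgals3 window was 66% G or C with 13 CpG, and 84.5% of promoters had a lower share. Those of Lyz2 and Mpeg1 were 41.6% and 40% G or C with 1 and 2 CpG.

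Retina libraries held 13732959 to 36354094 counted reads and sorted rods 7289460 to 19864491. UNC1999 control 3 stood apart from the other 2 controls of its experiment, with Cd68 at 6.79 against 21.4 and 21.6 CPM (counts scaled to library size with TMM factors) and Lgals3 at 5.74 against 61.7 and 34.9 CPM. Results that rest on it are given with it and, refitted on 2 controls, without it. This library is set apart here by low values of the members themselves. Calls of members made without it are therefore a description and no independent support. The final digit of the genotype in the labels climbs by 1 per library from DZNep control 2 onward to the end of the UNC1999 series, as does that of the UNC1999 treatment name, and all were taken as rd10 and UNC1999.

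In the 12 control retinas the levels per kilobase of exon differed widely between the genes. Apoe, a lipid carrier, had a median of 1187 CPM per kilobase. Ctss (cathepsin S, a lysosomal protease) followed at 61.3, Lyz2 (lysozyme) at 41.6 and Tyrobp at 26.2 CPM per kilobase. Mpeg1, a pore-forming protein of phagosomes, had 15.5, Cd68, a glycoprotein of lysosome membranes, had 14.6 and the lectin Lgals3 (galectin-3) 7.32 CPM per kilobase. The lowest were the protease inhibitor Cst7 (cystatin F) at 2.60, Trem2 at 2.38 and Itgax, the integrin chain CD11c, at 1.13 CPM per kilobase. The lowest Apoe value, 527, was above the highest of Ctss, 132, while the ranges of every other pair of neighbours in this order overlapped. The controls themselves differed in level. Across them Lgals3 ran from 3.26 to 79.7 CPM, a 24.5-fold range, Itgax 11.3-fold, Cd68 10.8-fold and Apoe 3.22-fold. The highest of the 12 values belonged to UNC0642 control 1 for every member but Cst7 and Apoe, which were highest in Romidepsin control 3. DZNep control 4 was lowest for Lyz2, Tyrobp, Mpeg1, Cd68, Lgals3 and Cst7. Experiments were therefore compared through their own controls.

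**Figure D1:**
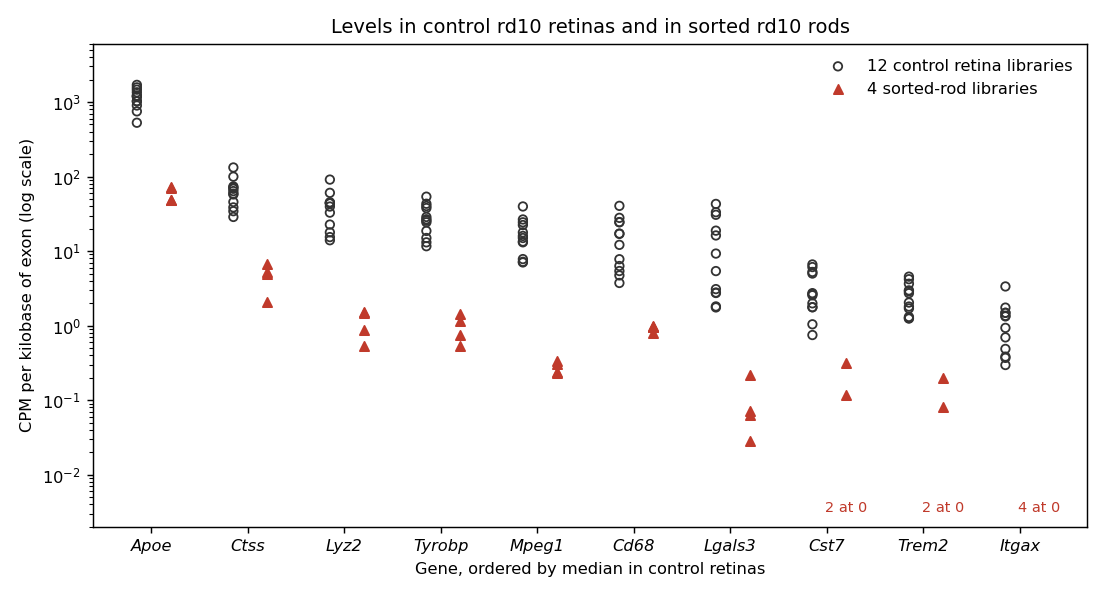
Level of each gene in CPM per kilobase of exon (log axis), 1 circle for each of 12 control retina libraries and 1 triangle for each of 4 libraries of sorted rods. Apoe stands above all others, from 527 in retina, and Itgax had no count in any sorted-rod library.

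After DZNep, all 10 genes had a negative log2 fold change, and 4 of them fell at an adjusted p under 0.05: Apoe, Lyz2, Itgax and Mpeg1 (edgeR quasi-likelihood test, Benjamini-Hochberg over 16477 genes, of which 9.72% passed in this direction and 12.9% as higher). After UNC1999 all 10 were again negative, and 2 fell, Cst7 and Lyz2, where 0.101% of 15775 genes passed as lower and 0.501% as higher. After UNC0642, 9 were negative and Lgals3 was positive, and none passed by this edgeR test, where 0% of 16321 genes did. Both the likelihood ratio test and DESeq2 called 2 members lower after UNC0642 (0.288% and 0.563% of genes) and 1 higher (0.6% and 0.978%). After Romidepsin, 9 were negative and Lgals3 positive, and Mpeg1 and Ctss fell, where 0.174% of 16049 genes passed as lower and 0.573% as higher. With an absolute log2 fold change above 1 required as well, 3, 2, 0 and 1 members were lower and none higher after DZNep, UNC1999, UNC0642 and Romidepsin, where 0.686%, 0.0697%, 0% and 0.156% of genes passed as lower and 1.02%, 0.298%, 0% and 0.405% as higher. The median log2 fold change of the members was −0.86 after DZNep, −1.58 after UNC1999, −0.56 after UNC0642 and −0.84 after Romidepsin, while the median of all genes tested lay between −0.0088 and −0.00057. At an unadjusted p under 0.05, 7 members were lower after DZNep (17.2% of all genes), 10 after UNC1999 (11.9%), 3 after UNC0642 (6.8%) and 6 after Romidepsin (9.46%). At that p Lgals3 was higher after UNC0642 (7.95%) and also after Romidepsin, where 3110 of 16049 genes had such a p in either direction.

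The number of members that passed depended on single libraries and on the test. Without UNC1999 control 3, 9 of the 10 passed as lower after UNC1999, all but Apoe, and the share of all genes that passed as lower rose from 0.101% to 8.5%. Leaving out any one of the other 5 libraries left no member and at most 0.0124% of genes. After DZNep, 7 members passed without control 4 (7.23% of genes) and 1, Apoe, without treated library 1 (1.67%) or 2 (4.47%). After Romidepsin none passed without control 2, control 3 or treated library 3 (0% of genes each), 1 without control 1 (0.366%) and 3 without treated library 2 (0.423%). The likelihood ratio test called 6, 10 and 5 members lower after DZNep, UNC1999 and Romidepsin, where it called 9.52%, 5.08% and 3.29% of all genes lower. DESeq2 called 5, 8 and 5, and 9.27%, 4.44% and 2.79% of the genes to which it gave an adjusted p.

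Every treated library lay below every control for 6 members after DZNep, where 20.6% of genes did so, for 8 after UNC1999 (12.9%), for 4 after UNC0642 (24.8%) and for 5 after Romidepsin (12.1%). Lgals3 was the one member with every treated library above every control, after UNC0642 (27.2% of genes) and after Romidepsin (13.8%). No member did so after DZNep (25.5%) or UNC1999 (14.5%).

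**Figure D2:**
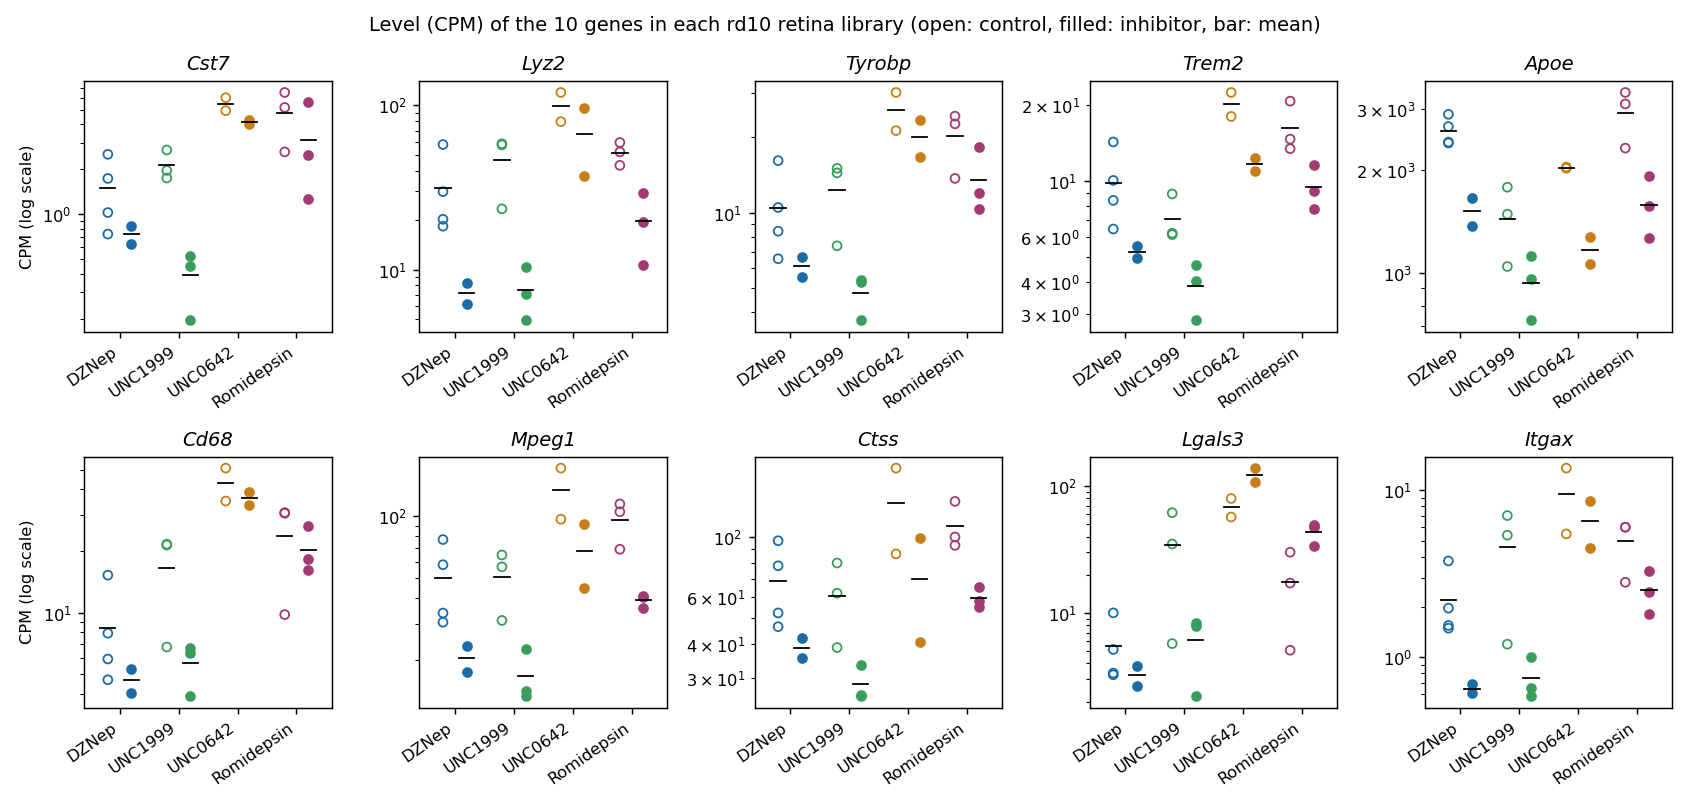
CPM (log axes, 1 panel per gene) in each retina library, with open circles for controls, filled circles for treated libraries and bars for means. Lgals3 is the gene whose filled circles lie above the open ones after UNC0642 and Romidepsin.

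**Figure D3:**
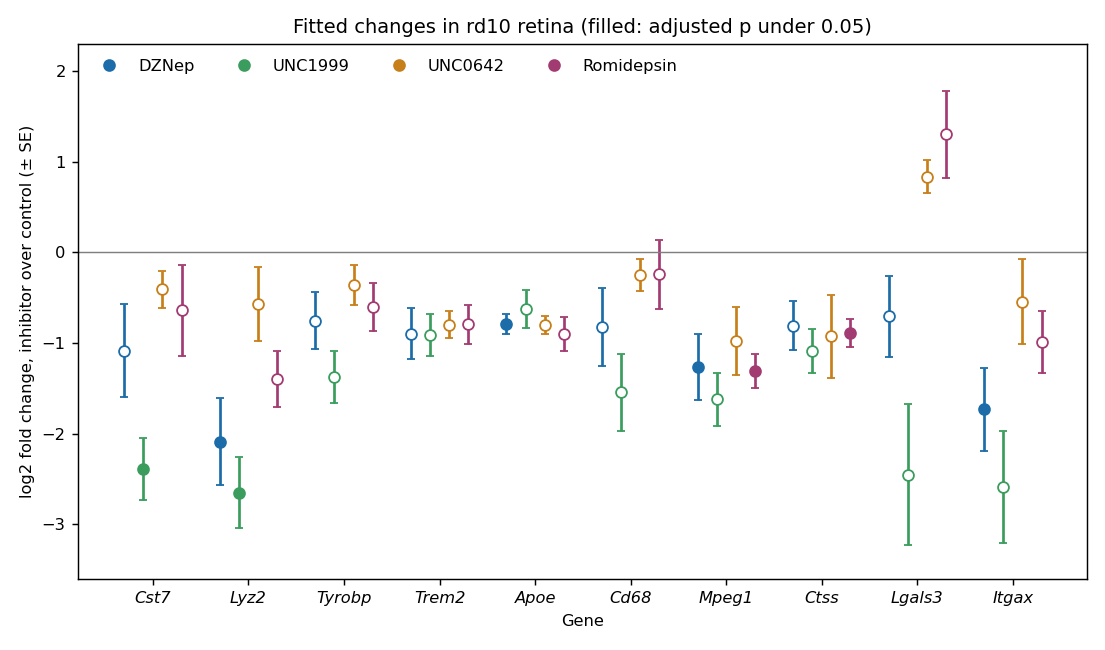
Log2 fold change of each gene with its standard error, 1 point per whole-retina inhibitor, filled where the adjusted p was under 0.05. The filled points are Lyz2, Apoe, Mpeg1 and Itgax for DZNep, Cst7 and Lyz2 for UNC1999, and Mpeg1 and Ctss for Romidepsin.

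Trem2 (ENSMUSG00000023992, chr17:48485726-48493472, plus strand, build NCBIM37 as for all gene positions that follow) is the lipid receptor on the microglial surface. Its controls in the DZNep experiment were at 14.3, 8.40, 10.1 and 6.48 CPM and the treated libraries at 5.53 and 4.95 CPM. In the UNC1999 experiment they were at 6.15, 8.91 and 6.24 against 4.68, 4.04 and 2.82 CPM. The groups did not overlap in either case, nor after UNC0642 (22.5 and 18.0 against 12.3 and 11.0 CPM) or Romidepsin (13.5, 14.7 and 20.7 against 9.14, 11.6 and 7.77 CPM). Trem2 was the member with the most even change, between −0.79 and −0.91 on the log2 scale with all 4 inhibitors. None of these passed the edgeR quasi-likelihood test, with adjusted p of 0.051, 0.076, 0.299 and 0.102 after DZNep, UNC1999, UNC0642 and Romidepsin. Without UNC1999 control 3 the change after UNC1999 was −0.997 and passed (edgeR adjusted p = 0.030).

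Tyrobp (ENSMUSG00000030579, chr7:31198807-31202596, plus) encodes DAP12, the adaptor that carries the TREM2 signal. Its means after UNC1999 were 4.80 ± 0.94 CPM (SD, n = 3) against 12.3 ± 4.26 CPM (SD, n = 3) in controls, with the treated libraries at 5.40, 5.29 and 3.72 below the lowest control at 7.38 CPM. The log2 fold change was −1.37 with an SE of 0.29 and did not pass (edgeR adjusted p = 0.058), though it did without control 3 (−1.63, edgeR adjusted p = 0.0018). In the other 3 experiments the groups overlapped, and the log2 fold changes were −0.75, −0.36 and −0.60 after DZNep, UNC0642 and Romidepsin. Across the 22 retinas, with each library taken relative to the mean of its experiment's controls, Tyrobp followed the mean of the other 9 members most closely (Pearson's r = 0.967).

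Lyz2 (ENSMUSG00000069516, chr10:116714390-116719377, minus) encodes the lysozyme of macrophages and activated microglia, and it was the one member that fell with both EZH2 inhibitors. After DZNep the treated libraries were at 8.22 and 6.17 CPM against 57.6, 20.2, 29.8 and 18.3 CPM in controls, 4.25-fold lower (log2 fold change −2.09, SE 0.48, edgeR adjusted p = 0.016). After UNC1999 they were at 7.09, 10.4 and 4.90 against 57.3, 58.2 and 23.4 CPM, 6.27-fold lower (log2 fold change −2.65, SE 0.39, edgeR adjusted p = 0.041). The groups were apart in both experiments. After Romidepsin 29.0, 19.4 and 10.7 CPM stood against 43.0, 51.9 and 59.2 CPM, again without overlap, but the change of −1.39 did not pass (edgeR adjusted p = 0.070). After UNC0642 one treated library at 96.5 CPM lay between the controls at 119 and 79.3 CPM and the other at 37.0 CPM lay below them. The neighbouring Lyz1, whose sequence is close to that of Lyz2 (195 of 1264 windows of 50 bases in Lyz2 were shared), had 0 to 9 counts in a library where Lyz2 had 7 to 3118, and reads common to both may have been lost from the counts.

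Cst7 (ENSMUSG00000068129, chr2:150396151-150404680, plus) encodes cystatin F, an inhibitor of lysosomal cathepsins and one of the defining genes of the disease-associated state. It was at 1.96, 2.69 and 1.75 CPM in the UNC1999 controls and at 0.195, 0.529 and 0.449 CPM after the inhibitor. That is 5.23-fold lower with no overlap (log2 fold change −2.39, SE 0.35, edgeR adjusted p = 0.038). The counts behind these values were low, at 37, 70 and 35 in controls and 3, 11 and 11 after UNC1999. After DZNep one treated library at 0.838 CPM was above the lowest control at 0.737 CPM, and the change of −1.08 did not pass (edgeR adjusted p = 0.160). After Romidepsin the values were 1.27, 5.61 and 2.50 against 2.61, 5.17 and 6.52 CPM, and the spread within both groups was larger than the difference of their means. After UNC0642 it was at 4.26 and 4.01 against 6.01 and 4.92 CPM.

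Ctss (ENSMUSG00000038642, chr3:95330708-95360325, plus) encodes cathepsin S, a protease that works in lysosomes and outside the cell. After Romidepsin it was at 55.2, 65.3 and 57.8 CPM against 93.0, 99.9 and 135 CPM, 1.85-fold lower (log2 fold change −0.89, SE 0.16, edgeR adjusted p = 0.049). Mpeg1 (ENSMUSG00000046805, chr19:12535269-12539774, plus) encodes perforin-2, which makes pores in the membranes of engulfed microbes. After Romidepsin it was at 40.6, 41.1 and 35.8 CPM against 69.2, 115 and 105 CPM, 2.48-fold lower (log2 fold change −1.31, SE 0.19, edgeR adjusted p = 0.028), and it also fell after DZNep, 2.41-fold (log2 fold change −1.27, SE 0.36, edgeR adjusted p = 0.037). Both genes were apart from controls in the DZNep, UNC1999 and Romidepsin experiments. After UNC0642 Mpeg1 was also apart, at 91.6 and 44.6 against 172 and 96.9 CPM (24.8% of genes were so). Ctss overlapped there, at 99.0 and 40.9 against 180 and 86.5 CPM. Their log2 fold changes of −0.98 and −0.92 did not pass (edgeR adjusted p = 0.330 and 0.378). After UNC1999 neither passed, at log2 fold changes of −1.62 for Mpeg1 and −1.09 for Ctss (edgeR adjusted p = 0.053 and 0.060), and without control 3 both did (−1.87 and −1.32, edgeR adjusted p = 0.0019 for each).

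Cd68 (ENSMUSG00000018774, chr11:69477715-69479655, minus), a marker of phagocytic lysosomes often stained to show activated microglia, passed in no experiment. Its treated libraries were below the controls only after UNC1999, at 3.90, 6.68 and 6.37 CPM against 21.4, 21.6 and 6.79 CPM, where the lowest control and the highest treated library were close together. The log2 fold changes were −0.82, −1.54, −0.25 and −0.24 after DZNep, UNC1999, UNC0642 and Romidepsin. Single libraries moved each of them. Without UNC1999 control 3 the change after UNC1999 was −1.91 and passed (edgeR adjusted p = 0.0018). Without DZNep control 1 the change after DZNep was −0.38, and as single libraries were left out that after Romidepsin ran from −0.61 to −0.0076 and that after UNC0642 from −0.49 to 0.038.

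Apoe (ENSMUSG00000002985, chr7:20281458-20284515, minus), the most abundant member and a ligand of TREM2, had a smaller error than any other member in the DZNep, UNC1999 and UNC0642 experiments. After DZNep it was at 1374 and 1651 CPM against 2898, 2391, 2671 and 2406 CPM, 1.73-fold lower (log2 fold change −0.79, SE 0.11, edgeR adjusted p = 0.0017). This was the one member call with an adjusted p under 0.05 under every other test, filter, normalization, sample set and left-out library run, the highest being 0.033, and its size is below an absolute log2 fold change of 1. After UNC0642 it was at 1273 and 1057 against 2017 and 2034 CPM, and after Romidepsin at 1566, 1916 and 1263 against 3109, 2310 and 3358 CPM. Both changes, −0.80 with an SE of 0.10 and −0.90 with an SE of 0.19, had groups that did not overlap but did not pass (edgeR adjusted p = 0.224 and 0.064). The summed level of 12 Müller glia and astrocyte markers was 7533 to 8016 CPM in DZNep controls and 5877 to 6435 CPM in treated libraries, 6371 to 7332 and 6118 to 6254 CPM for UNC0642, and 7773 to 8105 and 5994 to 6555 CPM for Romidepsin, below controls in all 3. It was 5542 to 6582 and 5071 to 6305 CPM for UNC1999, where the groups overlapped. Its part in the Apoe changes was not tested. In the UNC1999 experiment the groups overlapped, at 1117, 959 and 726 against 1043, 1776 and 1482 CPM. Apoe followed the mean of the other members less closely than most (Pearson's r = 0.537 over the 22 retinas).

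Itgax (ENSMUSG00000030789, chr7:135273061-135294171, plus), the integrin alpha chain CD11c that joins beta-2 integrin on microglia, macrophages and dendritic cells, fell 3.32-fold after DZNep. It was at 0.688 and 0.610 CPM against 3.77, 1.49, 1.97 and 1.55 CPM (log2 fold change −1.73, SE 0.46, edgeR adjusted p = 0.026). After UNC1999 it was at 0.585, 1.01 and 0.653 CPM, below controls at 7.05, 5.38 and 1.20 CPM, and the change of −2.59 did not pass (SE 0.62, edgeR adjusted p = 0.070). Control 3 was again the low one, and without it the change was −3.02 and passed (edgeR adjusted p = 0.0013). After Romidepsin (log2 fold change −0.99) and UNC0642 (−0.54) its groups overlapped.

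Lgals3 (ENSMUSG00000050335, chr14:47987426-48005835, plus) encodes galectin-3, a sugar-binding protein that phagocytes secrete and that acts at damaged lysosomes. After Romidepsin it was at 33.9, 49.5 and 47.4 CPM against 5.09, 30.1 and 17.2 CPM, and after UNC0642 at 107 and 138 against 79.7 and 57.0 CPM. Every treated library was above every control in both. The log2 fold changes were 1.30 (SE 0.48, edgeR adjusted p = 0.188) and 0.84 (SE 0.18, edgeR adjusted p = 0.299), and stayed positive as each library was left out, between 0.87 and 1.95 after Romidepsin and between 0.62 and 1.09 after UNC0642. The likelihood ratio test and DESeq2 both passed the UNC0642 change, and neither passed the Romidepsin one. After UNC1999 Lgals3 was at 2.21, 8.27 and 7.84 CPM against 61.7, 34.9 and 5.74 CPM, a change of −2.45 with an SE of 0.78 that did not pass (edgeR adjusted p = 0.112), and the low control 3 lay among the treated libraries. Without control 3 the change was −2.93 and passed (SE 0.42, edgeR adjusted p = 0.0045). After DZNep the groups overlapped at the low values of 3.83 and 2.67 against 10.0, 3.36, 5.16 and 3.26 CPM. Lgals3 had the lowest correlation of any member with the mean of the others (Pearson's r = 0.50 over the 22 retinas).

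The changes with the 4 inhibitors were compared with each other for all 6 pairs in a fit of the 22 retinas (edgeR quasi-likelihood test, Benjamini-Hochberg over 17274 genes and the 6 pairs). No member differed at an adjusted p under 0.05 in any pair. Of all genes, 0.0926% differed between DZNep and UNC1999, 0.197% between DZNep and UNC0642, 0.359% between DZNep and Romidepsin, 0.139% between UNC1999 and UNC0642, 1.51% between UNC1999 and Romidepsin and 0.289% between UNC0642 and Romidepsin. At an unadjusted p under 0.05, 4 members differed between UNC1999 and UNC0642, where 12% of genes did, and 2 between UNC1999 and Romidepsin, where 21.8% did. None differed at that p between DZNep and UNC1999 (9.45% of genes), DZNep and UNC0642 (13.1%), DZNep and Romidepsin (13.8%) or UNC0642 and Romidepsin (12.6%). The largest difference was that of Lgals3 between UNC1999 and Romidepsin, −3.74 on the log2 scale with an SE of 0.90 (edgeR adjusted p = 0.071), and it passed under the likelihood ratio test. The next was that of Lgals3 between UNC1999 and UNC0642, −3.28 with an SE of 0.97 (edgeR adjusted p = 0.138). For the EZH2 inhibitors DZNep and UNC1999, whose doses and schedules differed, the adjusted p of the members ran from 0.479 to 0.993. The interval behind this is wide, as with the difference for Cst7 of 1.31 with an SE of 0.84.

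Homeostatic microglia markers were lower beside the members. Of the 16 (among them P2ry12, Tmem119, Cx3cr1, Csf1r and the C1q genes), 15, 15, 16 and 16 had negative log2 fold changes after DZNep, UNC1999, UNC0642 and Romidepsin, with medians of −0.53, −1.03, −0.66 and −0.54. Only Fcrls after DZNep passed (log2 fold change −1.26, SE 0.33, edgeR adjusted p = 0.028), and 9, 13, 10 and 8 of the 16 had an unadjusted p under 0.05 in the negative direction, against 17.2%, 11.9%, 6.8% and 9.46% of all genes. Their summed level was 263 to 488 CPM in DZNep controls and 229 to 241 CPM in treated libraries, and 280.2 to 430.1 and 169.8 to 215 CPM for UNC1999. For UNC0642 it was 647 to 822 and 415 to 551 CPM, and for Romidepsin 442 to 717 and 386 to 573 CPM, where the groups overlapped. None of the 16 was at 0.

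The mean log2 CPM of the 10 members less that of the 16 markers set the members beside other genes of microglia. It was 0.72, 0.40, 0.39 and 0.29 in DZNep controls and −0.026 and −0.14 after DZNep, so both treated libraries were below every control. For UNC1999 it was 1.22, 1.09 and 0.33 in controls and −0.086, 0.30 and 0.24 in treated libraries, which were also lower, though by little from control 3. The difference of treated less control was −0.53 after DZNep and −0.73 after UNC1999, and −1.0005 after UNC1999 without control 3. After UNC0642 it was 0.18 (1.49 and 1.42 against 1.35 and 1.21), between 0.11 and 0.25 as single libraries were left out. After Romidepsin it was 0.0051, with overlapping groups, and its sign turned with single libraries, from −0.094 without control 1 to 0.059 without control 2. Without Lgals3 and Apoe, a choice made after seeing the data, it was −0.61, −0.78, 0.052 and −0.24 in the same order.

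**Figure D4:**
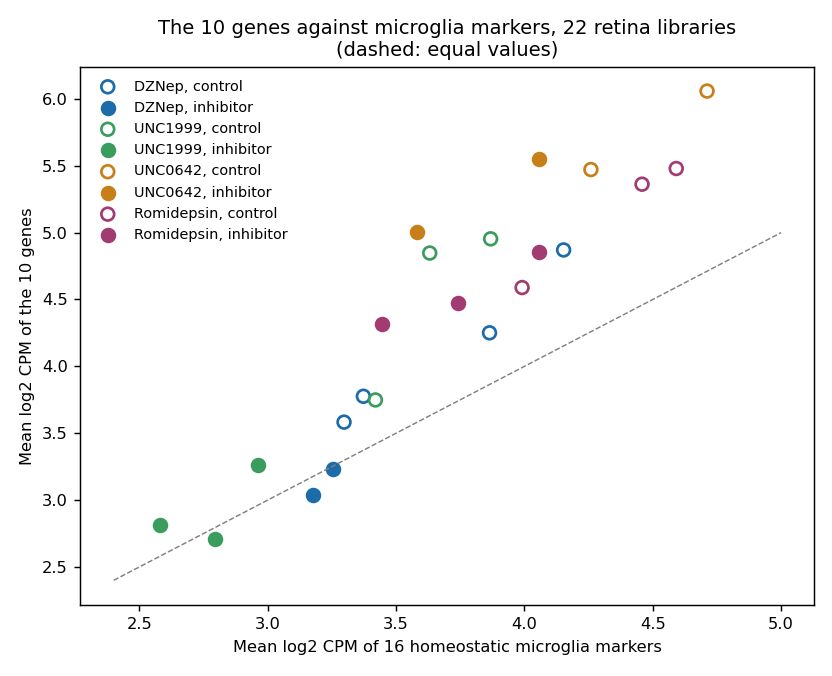
Mean log2 CPM of the 10 genes against that of 16 homeostatic microglia markers, 1 circle per retina library, open for controls and filled for treated libraries, with a dashed line where both are equal. The 2 DZNep-treated libraries lie just below the line, at differences of −0.026 and −0.14, and all UNC0642 libraries lie well above it.

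Other genes of the disease-associated state had a median log2 fold change of −0.15 after DZNep over 22 of 24 genes tested, beside −0.86 for the members. Among them 6 fell, Timp2, Cd83, Spp1, Cd9, Csf1 and Ctsz, and Cadm1 rose. Of all genes, 9.72% passed as lower and 12.9% as higher after DZNep, and these shares stand beside the lists that follow as well. Timp2, an inhibitor of metalloproteases, went from 259 ± 16.1 (SD, n = 4) to 193 ± 0.36 CPM (SD, n = 2) and Cadm1, a cell adhesion molecule, from 362 ± 7.22 (SD, n = 4) to 459 ± 21.1 CPM (SD, n = 2). After UNC1999 the median was −0.61 and 20 of 22 were negative, 18 of them at an unadjusted p under 0.05 (11.9% of all genes), but none passed. After UNC0642 and Romidepsin the medians were −0.12 and −0.017 and none passed.

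In a list for TREM2 and DAP12 signalling, which shares Siglech with the homeostatic markers, 3 of 13 genes tested fell after DZNep and none passed elsewhere. They were Vav1, an exchange factor for small GTPases, which went from 3.26 ± 0.79 (SD, n = 4) to 1.34 ± 0.039 CPM (SD, n = 2), the phospholipase gene Plcg2, which went from 5.13 ± 0.56 (SD, n = 4) to 3.26 ± 0.084 CPM (SD, n = 2), and the adaptor gene Pik3ap1. The medians of the list were −0.64, −1.18, −0.60 and −0.69 after DZNep, UNC1999, UNC0642 and Romidepsin, and 6, 11, 0 and 5 genes were lower at an unadjusted p under 0.05, where 17.2%, 11.9%, 6.8% and 9.46% of all genes were.

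Of phagocytic receptors and the proteins that bridge them to dying cells, 4 of 17 fell after DZNep, the integrin genes Itgb5 and Itgav, the Fc receptor gene Fcgr3 and Mertk, the receptor with which phagocytes and the RPE take up photoreceptor membranes. Its ligand gene Gas6 rose, from 209 ± 8.87 (SD, n = 4) to 277 ± 15.5 CPM (SD, n = 2), and Itgb5 went from 103 ± 4.09 (SD, n = 4) to 66.4 ± 9.09 CPM (SD, n = 2). After Romidepsin the scavenger receptor gene Stab1 fell, from 29.9 ± 10.7 to 11.8 ± 1.25 CPM (SD, n = 3 each). The medians were −0.41, −0.79, −0.32 and −0.065 after DZNep, UNC1999, UNC0642 and Romidepsin. In the phagosome, Cybb, the catalytic subunit of the oxidase that makes superoxide, fell after DZNep (log2 fold change −2.17, SE 0.60, edgeR adjusted p = 0.033) and after Romidepsin (−2.18, SE 0.37, edgeR adjusted p = 0.048), and the engulfment gene Elmo1 fell after DZNep. That list had medians of −0.45, −1.57, −0.15 and −0.44, and 11 of 13 genes were lower after UNC1999 at an unadjusted p under 0.05 (11.9% of all genes) with none past the adjusted one.

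Of 20 lysosomal hydrolases and membrane proteins, which all cells use, 1 fell after DZNep (Hexa) and 1 rose (Lgmn, a protease), and none passed with the other inhibitors, with medians from −0.32 after UNC1999 to −0.041 after DZNep. Of 14 genes that handle APOE lipids, Abca1, Clu, Lcat and Apoc1 fell and Vldlr and Abcg1 rose after DZNep, while Pltp, a phospholipid transfer protein, rose after UNC1999. Abca1, which loads lipid onto APOE, went from 85.7 ± 7.46 (SD, n = 4) to 56.4 ± 0.41 CPM (SD, n = 2), and Pltp from 17.6 ± 2.96 to 38.4 ± 5.58 CPM (SD, n = 3 each). Of transcription factors of microglia and phagocytes, Cebpa, Ikzf1 and Runx1 fell and Bhlhe41 rose among 13 tested after DZNep, and none passed elsewhere. Cebpa went from 6.85 ± 1.97 (SD, n = 4) to 3.36 ± 0.11 CPM (SD, n = 2).

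Markers of other cells that hold or could hold these transcripts were measured in the same libraries, and their part in the members' changes was not tested. Of 13 macrophage and monocyte markers, 6 could be tested after DZNep and 4 after UNC1999. Ms4a7 and Emr1 (F4/80, which microglia also express) fell after DZNep, Emr1 after UNC1999 and Ms4a7 after Romidepsin. Ms4a7 went from 3.26 ± 0.91 to 0.589 ± 0.35 CPM (SD, n = 3 each) after Romidepsin, and Emr1 from 10.7 ± 3.96 to 2.26 ± 0.18 CPM (SD, n = 3 each) after UNC1999. The summed level of the 13 was 30.9 to 43.9 CPM in controls and 24.3 to 29.9 CPM after DZNep, 31.7 to 63.9 and 23.2 to 27.8 CPM for UNC1999, 84.7 to 107 and 36.8 to 75.0 CPM for UNC0642, and 45.3 to 73.1 and 36.7 to 39.9 CPM for Romidepsin. Treated libraries were thus below controls in all 4 experiments. Of the genes tested, 1 of 6 was higher after DZNep, 0 of 4 after UNC1999, 1 of 11 after UNC0642 and 2 of 10 after Romidepsin. The medians were −0.78, −2.38, −0.60 and −0.84 in the same order. In sorted rods the 13 summed to 14.0 to 15.2 CPM in controls and 13.0 to 13.4 CPM after GSK. The 10 neutrophil markers summed to at most 12.0 CPM in any retina. Only 1 of them could be tested after Romidepsin, Csf3r, which fell from 8.06 ± 1.64 to 2.75 ± 0.76 CPM (SD, n = 3 each). The 10 summed to 6.89 to 10.2 CPM in those controls, so most of that sum was Csf3r. Of 2 tested after DZNep, S100a9 rose, from 0.118 ± 0.11 (SD, n = 4) to 1.16 ± 0.080 CPM (SD, n = 2). None of the lymphocyte and dendritic cell markers passed in any experiment, and their 12 genes summed to between 13.3 and 19.4 CPM in each retina.

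The 15 rod markers had median log2 fold changes of 1.08, 0.95, 0.27 and 0.42 after DZNep, UNC1999, UNC0642 and Romidepsin. All 15 rose after DZNep (12.9% of all genes), and their summed level went from 21460.5 to 35800.4 CPM in controls to 65003 to 67236 CPM. It was 23496 to 43771 and 59309 to 80283 CPM for UNC1999. There 13 of 15 were higher at an unadjusted p under 0.05, which 3728 of 15775 genes had in either direction, and none passed the adjusted one. For UNC0642 the sum was 9884 to 10076 and 10253 to 15235 CPM, and for Romidepsin 17649 to 28223 and 27860.5 to 36475 CPM, where the groups overlapped and none passed. The part of the higher rod levels in the members' lower CPM was not tested. Of 12 Müller glia and astrocyte markers, 10 fell after DZNep (9.72% of all genes), among them Aqp4 (log2 fold change −0.66, SE 0.064, edgeR adjusted p = 0.00067) and Kcnj10, and none passed elsewhere. At an unadjusted p under 0.05, 7 of the 12 were lower after Romidepsin (9.46% of all genes). After UNC0642, 5 were lower (6.8%) and 3 higher (7.95%), and after UNC1999 5 were lower (11.9%) and 1 higher. RPE markers, listed for the layer behind the retina, rose after both EZH2 inhibitors. They were 6 of 14 after DZNep (12.9% of all genes), where Trpm1 fell, and 8 of 14 after UNC1999 (0.501%). Rgr went from 28.8 ± 1.32 to 123 ± 14.2 CPM (SD, n = 3 each) after UNC1999. After Romidepsin 13 of the 14 RPE markers were lower, 11 at an unadjusted p under 0.05 (9.46% of all genes), and none passed. Their median log2 fold change there was −1.03, and their sum was 536 to 585 CPM in controls and 303 to 392 CPM in treated libraries. Which cells held the transcripts of this list was not tested. Of 10 vascular markers 3 fell after DZNep (Kdr, Cldn5 and Pdgfrb), where 9.72% of all genes did. Of 10 cell division genes none passed in any experiment. After UNC1999, 6 of them were tested and 4 were lower at an unadjusted p under 0.05 (11.9% of all genes).

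In sorted rods most members had few counts, while Apoe had 727 to 2667 counts in a library and Ctss 28 to 157. The rod markers summed to 61610 to 94575 CPM, while Itgax had no count in any of the 4 libraries, which allows up to 0.151 to 0.412 CPM at 3 counts per library (counting error only). Cst7 and Trem2 had none in 2 libraries each, Lgals3 had 1 to 4 counts and Tyrobp 3 to 11. Only Lyz2, Apoe, Cd68, Mpeg1 and Ctss had enough counts to be tested after GSK. Apoe was at 97.1 and 145 CPM in controls and at 139 and 96.7 CPM after GSK, and the median of the control retinas was 19.4-fold above the mean of the control rods. The homeostatic markers summed to 65.0 to 79.8 CPM in control rods and 65.8 to 68.5 CPM after GSK, and the 12 Müller and astrocyte markers to 224 to 307 and 393 to 407 CPM. If the kits differed as the methods state, sorting and kit cannot be told apart in this comparison with retina.

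After GSK, Lyz2 was at 1.14 and 0.705 against 2.00 and 1.93 CPM, Mpeg1 at 1.04 and 1.01 against 1.34 and 1.46 CPM and Ctss at 6.65 and 2.82 against 7.21 and 9.18 CPM. These 3 had both treated libraries below both controls, as did 17.3% of 14478 genes, and Cd68 had both above (15.9% of genes), at 1.25 and 1.21 against 1.20 and 0.994 CPM. The counts behind them were low, 7 to 33 for Lyz2. None passed the edgeR test (0% of genes did), none had an unadjusted p under 0.05 (2.13% of genes did as lower), and neither the likelihood ratio test (0.173% of genes) nor DESeq2 (0.0746%) called any lower. The Lyz2 change of −1.05 had an SE of 0.75.

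The genes outside the list whose levels followed the mean of the members most closely over the 22 retinas, each library taken relative to the controls of its own experiment, were Nckap1l (Pearson's r = 0.983), Cd84, C3, Vav1, Fcrls, Cyth4, H2-K1 and Fcer1g (r = 0.960). The libraries share their experiments and controls, so r is a description. The treated libraries took part in this choice. Falls of these genes where the members fell follow in part from it and are no independent support. Nckap1l is a cytoskeletal regulator of blood cells, Cd84 a surface receptor, Vav1 an exchange factor and Cyth4 another for ARF GTPases. C3 is the central complement component, H2-K1 an MHC class I chain, whose reads may be split with near-identical MHC genes, and Fcer1g a signalling adaptor akin to DAP12. Of these 8, Vav1, Fcrls and H2-K1 fell after DZNep (9.72% of all genes), the last by 1.20 on the log2 scale (SE 0.29, edgeR adjusted p = 0.019). None passed with the other inhibitors. After UNC1999 their log2 fold changes ran from −2.79 for C3 to −1.11 for Cyth4, with 0.0501 as the lowest edgeR adjusted p, that of Fcer1g.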

How the data were processed

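RNA-seq was available for 22 whole-retina libraries and 4 libraries of sorted rods, grouped by the labels, with saline controls in every experiment for its own inhibitor. The authors trimmed reads with BBDuk, aligned them to NCBIM37 (Ensembl release 67) with HISAT2 2.2.1 and counted them per gene with HTSeq 0.11.2. Whether reads were counted by strand is not given in the sources used here, and no exon of a member overlaps another annotated gene. The deposited values are raw counts of 37991 genes. Symbols and positions (37205 genes) came from GENCODE M1 on the same build.

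Genes were filtered with filterByExpr, normalized with TMM and tested with the quasi-likelihood F test of edgeR 4.0.16 (R 4.3.3), with no replicate term, where the authors used the likelihood ratio test. Benjamini-Hochberg adjustment ran over all genes tested, and a gene passed at an adjusted p under 0.05. CPM were scaled by TMM over the 22 retinas, or over the 4 rod libraries. Means of log2 CPM used a prior count of 2. The tests were tested on simulated data. No library was a copy of its replicate, since chi-square divided by the number of genes was 3.89 or more in 23 pairs.

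The members were given by name, and these members and the 16 other lists were chosen with earlier results of these data known. Genes named are the members, up to 2 genes per list and experiment with the smallest p among those that passed, the 8 closest to the mean of the members, and Lyz1. One gene that the rule names is not reported here. Other names, such as the remaining genes that passed in a list, were added after their values were seen. Syk, Spi1, Tfec, Tfeb, Tfe3 and Chil3 were matched under older symbols. Other settings tried were DESeq2 1.42.0, the likelihood ratio test, no filter, a minimum of 10 counts per library, RLE normalization, the replicate block, an absolute log2 fold change above 1, all 22 retinas in one fit, the 9 controls of library series G-981 (DZNep, UNC0642 and Romidepsin), a prior count of 0.5 and leaving out each library. Figures were drawn with matplotlib 3.10.9.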

Additional observations from a re-analysis of the deposited data

How the results depend on the processing

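The number of members that passed as lower moved by more than 1.5 times under several settings, and the cause was not tested. The share of all genes that passed was not computed for 5 of these settings. They are no filter, at least 10 counts in every library, the replicate block, the G-981 controls and all retinas in one fit. Whether the members moved more than all genes there cannot be read from these counts. After DZNep it was 4, against 8 with the replicate block, 2 with all 22 retinas in one fit and 1 to 7 without single libraries. After UNC1999 it was 2, against 10 with the likelihood ratio test, 8 with DESeq2, 8 without a filter and 7 with all retinas in one fit. It was 1 with at least 10 counts in every library, which Cst7 did not meet, and 0 to 9 without single libraries. After UNC0642 it was 0 lower and 0 higher, against 2 and 1 with the likelihood ratio test, 2 and 1 with DESeq2, 5 and 1 without a filter, 5 and 1 with the replicate block, 1 and 0 with the 9 G-981 controls, and 0 to 1 and 0 to 1 without single libraries. After Romidepsin it was 2, against 5 with the likelihood ratio test, 5 with DESeq2, 4 without a filter, 1 with the replicate block, 1 with the G-981 controls, 4 with all retinas in one fit, 1 with the fold threshold and 0 to 3 without single libraries. After GSK it was 0 under every setting run. The number of members that differed between inhibitors was 0, against 1 for UNC1999 and Romidepsin with the likelihood ratio test or without a filter, and 0 to 1 for UNC1999 with Romidepsin or UNC0642 without single libraries. Without Lgals3 and Apoe, the change relative to homeostatic markers was 0.052 after UNC0642 and −0.24 after Romidepsin, against 0.18 and 0.0051.

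The sign of a single gene turned in 9 cases. After UNC0642 the G-981 controls gave log2 fold changes of 0.26 for Cst7, 0.34 for Lyz2, 0.24 for Tyrobp, 0.77 for Cd68 and 0.47 for Itgax, and without single libraries Cd68 ran from −0.49 to 0.038 and Itgax from −1.10 to 0.26, both positive without control 1. Apoe after GSK ran from −0.32 to 0.28, positive without control 2 or treated library 2. The labels do not say whether replicate numbers pair the libraries. Deviations of libraries with the same number had correlations of −0.21 and 0.019 (DZNep), −0.28, 0.23 and −0.042 (UNC1999) and 0.21 (UNC0642). They were 0.20, −0.045 and −0.27 for Romidepsin and −0.079 for GSK. In a group of 2 libraries the deviations mirror each other, so these values cannot decide whether libraries were paired. The block results above rest on a shared number only.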

Other observations

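Over the 22 retinas, with each library taken relative to its experiment's controls, the genes closest to Lgals3 were Crym (Pearson's r = 0.977), Mvp, Gpd1, S100a6, Akr1b8 and Capg (r = 0.940), a comparison chosen after the values were seen. Crym, a thyroid hormone binding protein, is one of the Müller glia markers listed. Its log2 fold changes were −1.51 after UNC1999, 0.33 after UNC0642 and 0.61 after Romidepsin (edgeR adjusted p = 0.091, 0.330 and 0.370), and it fell after DZNep by 0.43 (edgeR adjusted p = 0.012). S100a6, a calcium-binding protein, was at −1.48 after UNC1999 and 1.55 after Romidepsin (edgeR adjusted p = 0.181 and 0.066). Gpd1, a glycerol phosphate dehydrogenase, was at −1.95 and 1.21 (edgeR adjusted p = 0.089 and 0.107). Mvp, the main protein of vault particles, was at −1.05 and 0.94 (edgeR adjusted p = 0.170 and 0.124). Values of S100a6, Gpd1 and Mvp after DZNep and UNC0642 are not given. These genes were chosen by likeness to Lgals3 in the same libraries. The signs of their changes follow in part from that choice and are no independent support. The points share experiments and controls, and which cells held Lgals3 in these retinas was not tested.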
